A study of Homo sapiens with 18 samples.

Results

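UCA1 (urothelial cancer associated 1, ENSG00000214049) is a long noncoding RNA, that is, a long transcript with no known protein product. It is described here across the 18 RNA-seq libraries of a study of GPS2, a subunit of a nuclear corepressor complex that also restrains AKT signaling, in MDA-MB-231 cells, a triple negative breast cancer cell line. UCA1 was 1 of the 57448 genes in the count matrix and 1 of the 15587 that passed the filter on low counts. The filter was set at 1 CPM (counts per unit of library size, here the plain total) in 3 or more libraries. The CPM values given below were also scaled by TMM. The gene was chosen by its rise in the knockout lines, so the values of the knockout lines against the parental line are given as a description, without a p-value.

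There were 6 groups of 3 libraries, all in the MDA-MB-231 background: the unmodified parental cells (MB231-WT), 2 GPS2 knockout lines (KO1 and KO2), the same 2 lines after 4 h with 10 µM MK2206, an allosteric inhibitor of AKT (KO1+MK and KO2+MK), and untreated cells carrying myristoylated AKT (MB231-myrAKT), a form of the kinase tethered to the membrane and therefore constitutively active. The knockout lines came from separate sets of guide RNAs in a lentiviral CRISPR vector, were selected in puromycin and were kept as mixed pools, not clones. The active AKT came from a retroviral vector with puromycin resistance. No group carried an empty vector. In contrasts against the parental cells, vector and selection therefore cannot be told apart from the change of the gene. The controls of the MK2206 comparison are labelled untreated, and no vehicle is named in the labels. The labels do not say whether the replicates came from separate cultures, so the p-values measure the spread between these libraries, which may be technical.

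The first reports of UCA1 came from bladder cancer, and it is found at raised levels in many carcinomas, where it has been tied to proliferation, invasion and drug resistance. It acts in the nucleus and the cytoplasm, as a partner of proteins such as the splicing factor PTBP1 and the chromatin remodeler SMARCA4 and as a sponge for microRNAs. Factors reported to drive its transcription include C/EBPα, ETS2, HIF-1α and, in breast cancer cells, a complex of TAZ or YAP with TEAD and SMAD proteins.

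In GENCODE release 44, UCA1 lies on the plus strand of chromosome 19 of hg38, from 15828206 to 15836328, and its 45 annotated transcripts together cover 4154 bases of exon in 6 blocks. The stretch below is an internal exon, chr19:15831255-15831356 on the plus strand, which is shown because it is shared by most annotated forms of the RNA that was counted. Exactly this exon is used by 29 transcripts, and 38 of the 45 cover its 102 bases. None of these bases lies in an exon of another gene. It was read from the hg38 genome, 5′ to 3′, with no part marked by capitals.
UCA1 internal exon: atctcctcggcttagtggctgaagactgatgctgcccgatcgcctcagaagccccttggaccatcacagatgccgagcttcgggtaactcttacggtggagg

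The antisense lncRNA LINC01764 overlaps UCA1 on the minus strand and shares 1083 of its exonic bases. Whether the counting used strand is not given in the sources used here, so reads over these bases cannot be assigned to 1 of the 2 genes with certainty. LINC01764 received at most 7 counts in any library. Its counts summed to 4 in MB231-WT, 11 in KO1, 9 in KO2, 1 in MB231-myrAKT, 9 in KO1+MK and 12 in KO2+MK, against 109 to 9431 for UCA1. A second overlapping lncRNA, ENSG00000288618, shares 219 exonic bases and was not among the genes counted.

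Counted reads per library ranged from 23419198 to 39319910. Markers of a mesenchymal, hormone receptor negative line were checked: VIM was at 250.05 RPKM or more (CPM per kilobase of exon) and CD44 at 40.03 or more, while PGR and CDH1 stayed at or below 0.0211 and ESR1 at or below 0.100. ERBB2, the receptor HER2, was detected in every library, at 7.71 to 9.07 RPKM. GPS2 RNA was not lower in the libraries labelled KO. Its CPM was 4.39 to 4.88 in MB231-WT, 4.45 to 4.52 in KO1 and 5.89 to 6.12 in KO2. Genome editing can remove a protein without lowering its RNA, and 1380 of the 3089 exonic bases of GPS2 also lie in exons of ENSG00000261915 on the same strand, so this count does not check the knockout labels. The study's own checks of the knockout, by western blot and genomic PCR, are not analysed here. AKT1 was at 217.7 to 241.6 CPM in MB231-myrAKT against 133.4 to 135.2 in MB231-WT.

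UCA1 was 7.26-fold and 7.32-fold higher in the knockout lines than in parental cells, and 10.9-fold lower in cells with active AKT. In MB231-WT the CPM was 12.3, 10.96 and 11.3, from 422, 400 and 421 counts. In KO1 it was 87.9, 73.1 and 93.3, from 3343, 2709 and 3379 counts. In KO2 it was 92.0, 82.8 and 79.5, from 3221, 3219 and 2924 counts. Every knockout library lay above every parental library, and the ranges of the 2 knockout lines overlapped. The mean was 11.5 ± 0.725 CPM in MB231-WT, 84.8 ± 10.5 in KO1 and 84.8 ± 6.49 in KO2 (SD, n = 3).

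The fitted log2 fold change was 2.86 in KO1 (SE 0.0831, 95% confidence interval 2.68 to 3.04) and 2.87 in KO2 (SE 0.0625, 2.74 to 3.01). A gene was called higher or lower where the edgeR adjusted p was 0.001 or lower and the change reached 1.5-fold. By this rule 4.59% of all tested genes were called higher in KO1 and 5.56% in KO2, and 9.28% and 11.2% lower. Since UCA1 was selected on these contrasts, its place among those genes is not a result. The log2 fold change of KO2 against KO1 was 0.01 (95% confidence interval −0.13 to 0.15), given without a p-value because the gene was chosen by its rise in these lines. In that contrast 2.62% of genes were called in either direction.

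In MB231-myrAKT the CPM of UCA1 was 1.44, 0.864 and 0.879, from 48, 27 and 34 counts. All 3 libraries lay below every other library of the series. Against MB231-WT the log2 fold change was −3.45 (SE 0.151, 95% confidence interval −3.77 to −3.12), a level 10.9-fold lower (edgeR adjusted p = 2.83e-10, lower in 3 of 3 libraries). The parental libraries are the same as those of the knockout comparisons. In this contrast 8.83% of tested genes were called lower. In bulk RNA, fewer cells with the transcript and less transcript per cell cannot be told apart.

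**Figure D1:**
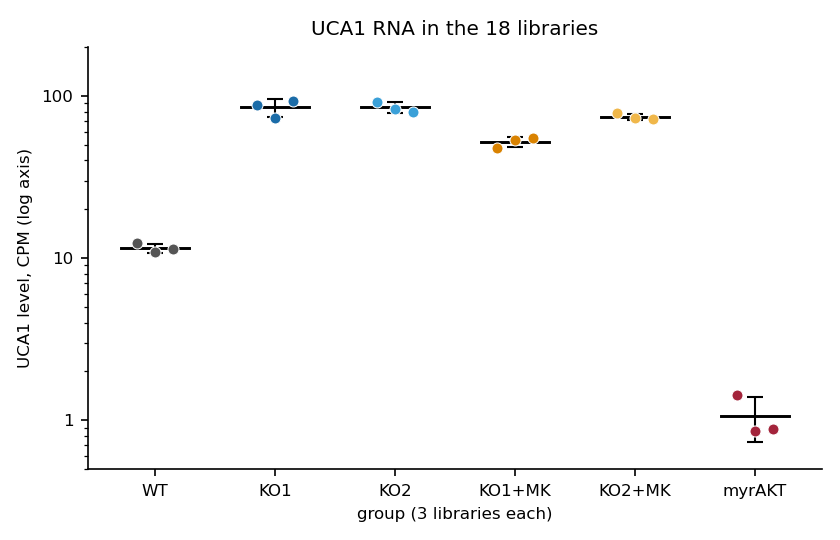
UCA1 level in CPM (log axis) in each library of the 6 groups. Points are libraries, the wide bar is the group mean and the error bar the SD (n = 3). The knockout libraries sit between 73.1 and 93.3 CPM without MK2206, the parental libraries between 10.96 and 12.3, and the MB231-myrAKT libraries between 0.864 and 1.44.

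UCA1 was lower after MK2206 in KO1, and stayed well above the parental level in both lines. In KO1+MK the CPM was 47.6, 53.5 and 55.2, below every untreated KO1 library. The log2 fold change against KO1 was −0.68 (SE 0.0770, 95% confidence interval −0.84 to −0.51), which is 1.60-fold lower (edgeR adjusted p = 1.48e-05). This passed the call, as did 1.71% of tested genes in the lower direction. The untreated knockout libraries are those by which the gene was chosen for its high level, and such a choice favours a fall from it, so the p-values of the MK2206 comparisons are not independent of the choice.

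In KO2+MK the CPM was 77.9, 73.4 and 72.1. These libraries also lay below every untreated KO2 library, but by less. The log2 fold change was −0.17 (SE 0.0516, 95% confidence interval −0.28 to −0.06, edgeR adjusted p = 0.0153) and did not pass the call, which 2.16% of genes passed in the lower direction. Without KO2 replicate 1 the value was −0.11 (edgeR adjusted p = 0.110), and without KO2+MK replicate 2 it was −0.16 (adjusted p = 0.0593), so the adjusted p was above 0.05 in 2 of 15 alternative fits. Library size moved with treatment, from 35627965 to 39319910 counted reads in the untreated knockout libraries to between 23419198 and 29939536 in the treated ones. With library totals alone in place of TMM scaling, UCA1 stayed lower, at −0.65 in KO1 and −0.16 in KO2. The part of depth in the result was not tested.

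The difference between the 2 responses was tested directly. The effect of MK2206 on the log2 scale was higher, that is, less of a fall, in KO2 than in KO1 by 0.51 (SE 0.105, 95% confidence interval 0.29 to 0.73). The unadjusted p of 0.000136 became an edgeR adjusted p of 0.0531, so the test of the difference in edgeR did not pass 0.05. Over 21 alternative fits the adjusted p ran from 1.65e-07, with no filter on low counts, to 0.219, without KO1 replicate 1, and was 0.05 or lower in 6 of them and 0.001 or lower in 2. In edgeR 0 genes were called for this difference (0.0%), with 1251 at an unadjusted p under 0.05 (8.03%), and DESeq2 called 5. In DESeq2 the difference of UCA1 was 0.51 with an adjusted p of 0.000868, under the fold required.

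After MK2206, UCA1 remained higher than in MB231-WT by 2.18 on the log2 scale in KO1+MK (95% confidence interval 2.03 to 2.33), or 4.52-fold, and by 2.69 in KO2+MK (2.56 to 2.82), or 6.46-fold. No p-value is given for these contrasts, because they share the parental libraries and the knockout lines by which the gene was chosen. The share of all tested genes called higher was 4.95% for KO1+MK and 9.05% for KO2+MK.

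From highest to lowest, the groups were KO2 and KO1, whose ranges overlapped, then KO2+MK, KO1+MK, MB231-WT and MB231-myrAKT. KO2+MK (72.1 to 77.9 CPM) overlapped KO1 (73.1 to 93.3) and not KO2 (79.5 to 92.0). No other neighbours in this order overlapped. Per length of exon, UCA1 was at 2.78 ± 0.175 RPKM in MB231-WT, 20.4 ± 2.52 in KO1, 20.4 ± 1.56 in KO2, 12.5 ± 0.955 in KO1+MK, 17.9 ± 0.729 in KO2+MK and 0.256 ± 0.0792 in MB231-myrAKT (SD, n = 3).

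Among the 1572 tested lncRNAs, ordered by mean RPKM, UCA1 ranked 180 in MB231-WT, 15 in KO1 and 14 in KO2. It ranked 20 in KO1+MK, 16 in KO2+MK and 1398 in MB231-myrAKT. The median tested lncRNA was at 0.780 RPKM in MB231-WT and 0.860 in MB231-myrAKT. UCA1 was therefore above the median lncRNA in parental cells and below it in cells with active AKT.

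The neighbourhood of UCA1 was nearly silent. Of 60 genes in the matrix within 500 kb of it, 12 passed the filter and 48 did not, 19 of them with no count in any library. The nearest tested genes were WIZ, a zinc finger partner of histone methyltransferases, 378.2 kb to the left, and TPM4, a tropomyosin of the actin cytoskeleton, 230.7 kb to the right. In the 617.1 kb between them UCA1 was the only gene that passed the filter. Of the 37 other matrix genes there, 18 had no count and none had more than 33 counts in any library. The CYP4F cytochromes, fatty acid hydroxylases that flank UCA1, had 24 counts over all 18 libraries for 6 genes, and 5 olfactory receptor genes of the OR10H family had 1. The closest gene to the left, at −4.4 kb, is the zinc finger pseudogene ZNF861P, with at most 2 counts in any library, and the closest to the right, at 15.8 kb, the pseudogene CLEC4OP, also with at most 2. Depth limits this statement, since 0 counts in a library allows a level of up to 3 counts, a bound that covers counting error only.

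The 12 tested neighbours had smaller changes than UCA1, which was chosen for its large one in these contrasts. In KO1 their log2 fold changes ran from −0.21 to 0.67, with a median of 0.16 against −0.01 for all tested genes. In KO2 they ran from −0.23 to 0.58, with a median of 0.19 against 0.01. AKAP8, which encodes a nuclear anchoring protein and lies at −448.4 kb, to the left, was the only one called in either line, at 0.67 in KO1 (SE 0.0456, edgeR adjusted p = 1.11e-08). In KO2 it was at 0.58 (adjusted p = 4.15e-08), just under the fold change required. The call was passed by 4.59% of all tested genes in the higher and 9.28% in the lower direction in KO1, and by 5.56% and 11.2% in KO2. An unadjusted p under 0.05 was reached by 8 of the 12 in each line, against 67.7% of all tested genes in KO1 and 69.2% in KO2.

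Small differences below that fold change were common. At an adjusted p of 0.001 or lower with no minimum fold change, 6 neighbours were higher and 1 lower in KO1, where 41.7% of all tested genes passed in either direction. In KO2, 5 were higher and 1 lower, against 43.1%. WIZ was at 0.55 and 0.39, RAB8A, a GTPase of vesicle transport, at 0.39 and 0.38, and TPM4 at −0.21 and −0.23 in KO1 and KO2. AKAP8L, the paralog next to AKAP8, was at −0.08 and −0.02 (adjusted p = 0.107 and 0.642). The unnamed transcripts ENSG00000279716 and ENSG00000279198 were at 0.0025 and −0.08 in KO1 and 0.02 and −0.17 in KO2, with adjusted p-values of 0.347 or higher.

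In MB231-myrAKT none of the 12 neighbours was called by edgeR or DESeq2, and 3 had an unadjusted p under 0.05, against 59.2% of all tested genes. Their log2 fold changes lay between −0.51 and 0.44, with a median of −0.01 against 0.02 for all tested genes. The transcription factor gene KLF2, 488.5 kb to the right, had the highest, 0.44 (edgeR adjusted p = 0.00037), and was the only one past the adjusted p with no minimum fold change, which 30.0% of genes passed. By the call, 4.94% of all tested genes were higher in this contrast.

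No neighbour was called under MK2206 in either line by edgeR or DESeq2. An unadjusted p under 0.05 was reached by 9 of 12 in KO1 and 10 of 12 in KO2, against 52.6% and 53.4% of all tested genes. With no minimum fold change, 1 was higher and 2 lower in KO1, against 19.2% of all tested genes in either direction, and 2 were higher and 2 lower in KO2, against 21.9%. WIZ was at −0.31 in KO1 (adjusted p = 4.9e-05) and −0.27 in KO2 (adjusted p = 0.000102). KLF2 was at 0.41 (adjusted p = 0.000686) and 0.40 (adjusted p = 0.000172). ENSG00000279198 had the largest difference of the 12 in each line, −0.49 in KO1 (adjusted p = 0.0619) and −0.74 in KO2 (adjusted p = 0.00545). In KO2, 5 of the 12 neighbours were below the −0.17 of UCA1. By the call, 3.3% of tested genes were higher with treatment in KO1 and 4.9% in KO2.

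**Figure D2:**
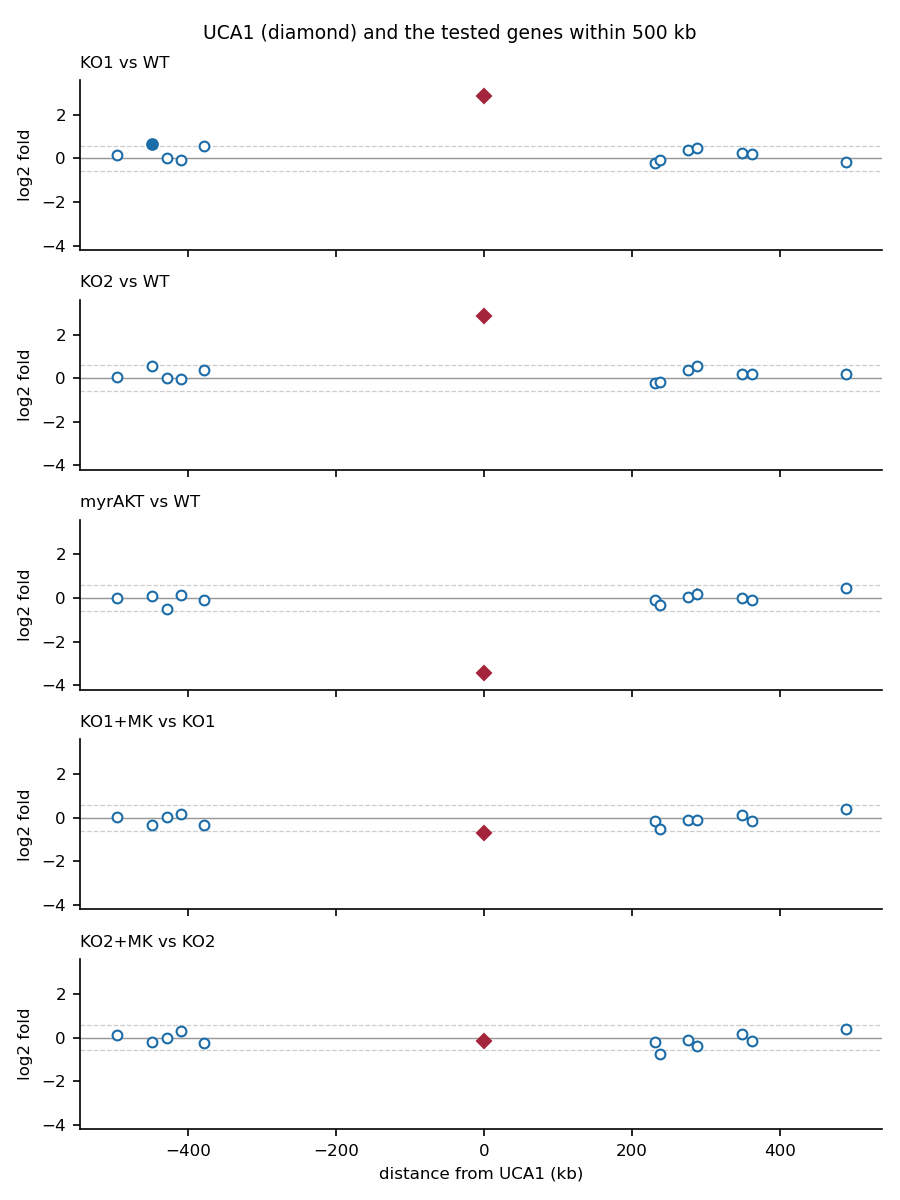
Log2 fold change of UCA1 (diamond) and of the 12 tested genes within 500 kb against their distance from UCA1 in kb, in 5 comparisons. Bars are standard errors, filled points were called and dashed lines mark a fold change of 1.5. UCA1 stands at 2.86, 2.87, −3.45, −0.68 and −0.17 from top to bottom, while the neighbours stay between −0.74 and 0.67.

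The profile of UCA1 over the 18 libraries was compared with that of the other 15586 tested genes by the Pearson correlation of log2 CPM. This is a description only: the libraries fall into groups, UCA1 sets its own lowest group far apart, and 390 genes had a correlation above 0.9 and 397 one below −0.9. Among the 5 genes most like it were MOCS2 (r = 0.996), an enzyme subunit of molybdenum cofactor synthesis, ERLIN1 (0.987), a lipid raft protein of the endoplasmic reticulum, ACAT2 (0.986), a cytosolic enzyme of acetyl-CoA metabolism, and FNBP1 (0.986), an adaptor of membrane curvature and actin. Without the 3 MB231-myrAKT libraries, the correlation was 0.979 for MOCS2 and between 0.935 and 0.944 for the other 3.

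By group mean, each of these 4 genes was higher than in MB231-WT in both knockout lines, with and without MK2206, and lower in MB231-myrAKT, as UCA1 was, at a far smaller range. The order among the knockout groups was not the same for each. MOCS2 was at 73.6 ± 0.683 CPM in MB231-WT, 97.8 ± 2.72 in KO1, 94.75 ± 2.32 in KO2 and 52.9 ± 1.54 in MB231-myrAKT (SD, n = 3). Between the highest and lowest group mean, UCA1 spanned 6.28 on the log2 scale and these 4 genes 0.62 to 0.91. ACAT2 had the widest range of the 4, from 90.1 ± 4.78 CPM in MB231-myrAKT to 168.8 ± 4.44 in KO1.

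The 3 genes with the most opposed profiles were ISG20 (r = −0.994), an interferon-induced exonuclease, B2M (−0.986), the light chain of MHC class I, and HLA-B (−0.986), a class I heavy chain. Reads of HLA-B may be shared with the other class I genes. HLA-B was at 157.7 ± 7.79 CPM in MB231-WT, 86.6 ± 2.22 in KO1, 75.9 ± 2.49 in KO2 and 314.7 ± 18.8 in MB231-myrAKT (SD, n = 3). ISG20 was at 22.8 ± 0.599 CPM in MB231-WT, 12.95 ± 0.804 in KO1, 13.4 ± 1.17 in KO2 and 52.1 ± 3.62 in MB231-myrAKT. Without the MB231-myrAKT libraries, the correlations were −0.973 for ISG20, −0.937 for B2M and −0.950 for HLA-B.

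**Figure D3:**
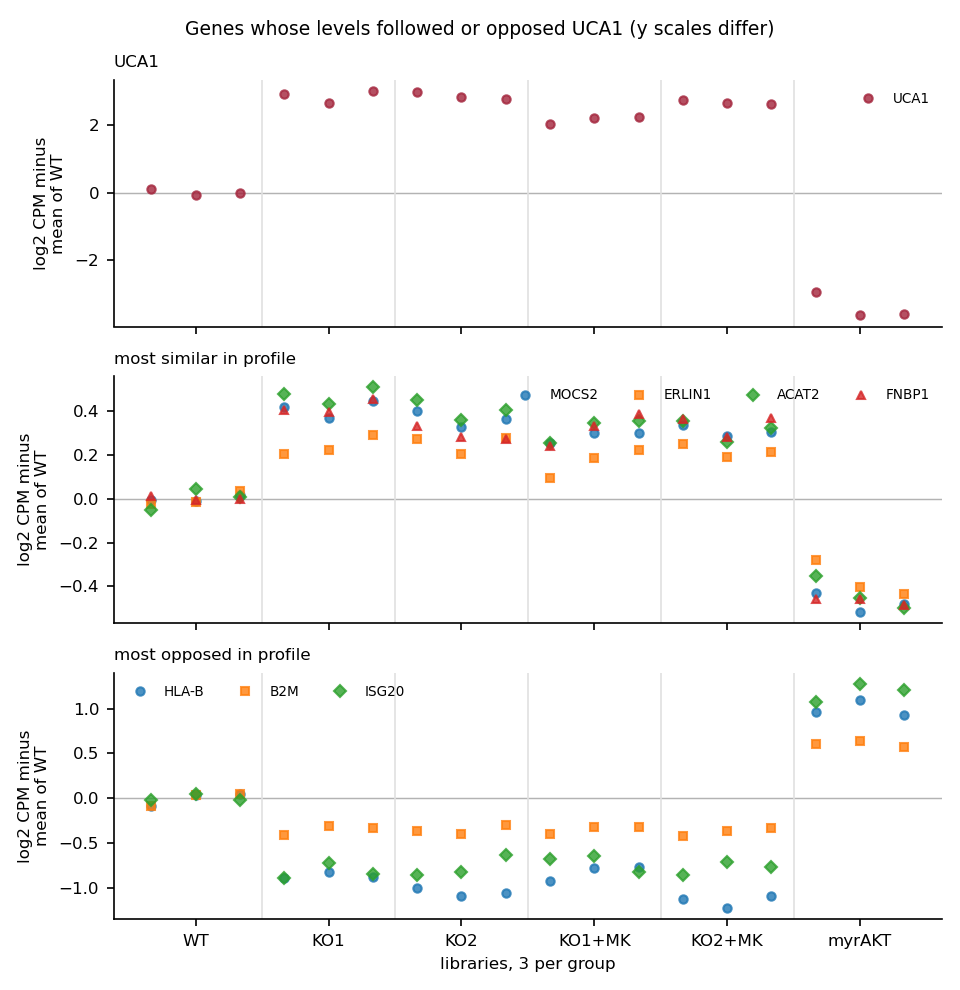
Log2 CPM minus the mean of the 3 MB231-WT libraries, in each library, for UCA1 (top), 4 of the 5 genes with the most similar profile (middle) and the 3 with the most opposed profile (bottom). The y axes differ: UCA1 spans 6.28 between group means, the 4 similar genes 0.62 to 0.91 and the 3 opposed genes 0.98 to 2.14.

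The pathways to which UCA1 has been tied were then described by 6 gene lists, each with its counts of called members. Of all tested genes, 4.59% were called higher and 9.28% lower in KO1, 5.56% and 11.2% in KO2, and 4.94% and 8.83% in MB231-myrAKT. With MK2206 the shares were 3.3% and 1.71% in KO1 and 4.9% and 2.16% in KO2. The first held 12 factors reported to act on its transcription. In KO1, 1 was higher and 2 lower, and in KO2, 0 were higher and 2 lower. TEAD4, a DNA-binding partner of YAP and TAZ, was 1.59-fold higher in KO1 (edgeR adjusted p = 6.85e-09) and at 0.54 on the log2 scale in KO2 (adjusted p = 2.16e-07, under the fold required). Its relative TEAD2 was lower in both lines, at −0.60 and −0.59, and so was SMAD3, the transcription factor of TGF-beta signaling, at −0.59 and −0.75. The calls of TEAD2 and that of SMAD3 in KO1 lay at the edge of the required fold. TEAD2 lost its calls without MB231-WT replicate 2 (−0.57 in both lines) or replicate 3 (−0.58 and −0.57), and in KO2 without KO2 replicate 3 (−0.53). SMAD3 in KO1 lost its call without MB231-WT replicate 1 (−0.55) or 3 (−0.58), without KO1 replicate 1 (−0.55) and in DESeq2 (−0.58).

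In MB231-myrAKT, 3 of the 12 factors were lower and 0 higher. YAP1, the Hippo pathway coactivator, was 2.89-fold lower (log2 fold change −1.53, SE 0.0426, edgeR adjusted p = 2.74e-12). TEAD1 was 1.81-fold lower (adjusted p = 1.07e-09), and SMAD3 was at −0.72 (adjusted p = 1.67e-08). WWTR1, which encodes TAZ, was at 0.28 (adjusted p = 0.00423). With MK2206 no factor was called in either line by edgeR, with 7 of 12 at an unadjusted p under 0.05 in each, against 52.6% of all tested genes in KO1 and 53.4% in KO2. The median of the list was −0.12 in KO1, −0.21 in KO2, −0.09 in MB231-myrAKT, −0.01 in KO1+MK and 0.04 in KO2+MK, against −0.01 to 0.02 for all tested genes.

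The factors with the longest record at the UCA1 promoter were not called in any of the 5 comparisons. CEBPA was at 0.08 in KO1, 0.20 in KO2 and −0.04 in MB231-myrAKT, with adjusted p-values of 0.780, 0.467 and 0.910. HIF1A was at 0.02 in KO1 (adjusted p = 0.554), −0.27 in KO2 (adjusted p = 2.96e-05) and −0.32 in MB231-myrAKT (adjusted p = 4.68e-05). ETS2 was at 0.49 in KO1 (adjusted p = 1.95e-07), 0.30 in KO2 (adjusted p = 9.89e-05) and −0.07 in MB231-myrAKT (adjusted p = 0.320). These values are of RNA, and say nothing of the proteins.

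Of 10 readouts of YAP, TAZ and TEAD, 1 was higher and 0 lower in KO1, 1 higher and 1 lower in KO2, and 0 higher and 4 lower in MB231-myrAKT. F3, tissue factor, which starts blood coagulation, was the member called in all 5 comparisons. Its mean was 228.0 ± 10.4 CPM in MB231-WT, 541.7 ± 39.2 in KO1, 368.3 ± 11.9 in KO2 and 92.1 ± 4.60 in MB231-myrAKT (SD, n = 3). It was 2.35-fold higher in KO1 and 1.61-fold higher in KO2, and 2.49-fold lower in MB231-myrAKT (edgeR adjusted p = 1.09e-10, 5.51e-09 and 4.7e-11).

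Under MK2206, F3 fell 3.53-fold in KO1 and 3.18-fold in KO2 (edgeR adjusted p = 6.59e-10 and 8.29e-11), to 150.9 ± 12.7 and 114.5 ± 11.8 CPM, below its parental range of 217.4 to 238.2. UCA1 stayed above its parental range in the same libraries. AJUBA, a LIM protein of the Hippo pathway, fell 1.89-fold in KO1 and 1.83-fold in KO2, and CCN2, a secreted matricellular protein, was at 0.38 in KO1 and rose by 0.80 in KO2. NEGR1, an adhesion molecule reported as a target of the same TAZ or YAP complex as UCA1, was not called in any comparison. In all, 0 members were higher and 2 lower with treatment in KO1, and 1 higher and 2 lower in KO2.

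ANKRD1, a muscle ankyrin repeat protein and common YAP reporter, was 2.47-fold lower in MB231-myrAKT (edgeR adjusted p = 1.94e-09). CCN1, another matricellular protein, was 1.77-fold lower in KO2 and 2.25-fold lower in MB231-myrAKT (adjusted p = 1.31e-07 and 5.81e-08). The medians of the list were 0.10 in KO1, 0.17 in KO2, −0.37 in MB231-myrAKT, −0.32 in KO1+MK and −0.16 in KO2+MK.

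Of 9 genes of TGF-beta and SMAD signaling, 0 were higher and 2 lower in KO1, and 0 higher and 1 lower in KO2. TGFBI, an extracellular matrix protein, was 1.78-fold lower in KO1, and LTBP2, a matrix protein of microfibrils, 1.56-fold lower in KO1 and 1.54-fold lower in KO2, the last call being lost without MB231-WT replicate 2 or 3 (−0.58 in each case). In MB231-myrAKT 2 were higher and 1 lower. PMEPA1, which encodes a membrane protein that restrains SMAD signaling, was 6.02-fold higher (edgeR adjusted p = 3.16e-12), and TGFBI was 1.78-fold lower (adjusted p = 8.79e-09). LTBP2, lower in the knockout lines, was 1.62-fold higher in MB231-myrAKT (adjusted p = 8.23e-07).

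With MK2206, 1 gene of this list was higher in KO1 and 3 in KO2, and none was lower. PMEPA1 was 1.71-fold higher in KO1+MK (edgeR adjusted p = 3.56e-06) and 1.62-fold higher in KO2+MK (adjusted p = 6.11e-06). In KO2+MK the inhibitory SMAD7 was also 2.07-fold and the corepressor SKI 1.67-fold higher (adjusted p = 3.74e-05 and 2.27e-08). The medians were −0.23, 0.03, 0.25, 0.20 and 0.19 in the order KO1, KO2, MB231-myrAKT, KO1+MK and KO2+MK.

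Hypoxia readouts did not move as 1 group. Of 11, 1 was higher and 2 lower in KO1, 1 higher and 3 lower in KO2, and 3 higher and 0 lower in MB231-myrAKT. VEGFA, the vascular growth factor, was 2.03-fold lower in KO1 and 2.72-fold lower in KO2 (edgeR adjusted p = 8.03e-10 and 3.96e-10), and NDRG1, a stress response gene, was 1.79-fold lower in KO1. ADM, the vasodilator peptide adrenomedullin, was 1.74-fold higher in KO1 and 2.01-fold higher in KO2 (edgeR adjusted p = 8.38e-07 and 6.93e-09). NDRG1 was called lower in KO2 too, at −0.59, but the call was lost without MB231-WT replicate 2 (−0.48) or 3 (−0.54) and without KO2 replicate 2 (−0.56). It was also lost in the joint fit of the 18 libraries (−0.58) and with replicate number as a block in the fit (−0.57). With any 1 of these 3 libraries left out, 2 members were called in KO2 in place of 4. In MB231-myrAKT, KDM3A, a histone demethylase, was 1.71-fold higher, and CA9, a carbonic anhydrase, 5.69-fold higher, although from low levels (0.268 ± 0.0476 CPM in MB231-WT and 1.55 ± 0.0474 in MB231-myrAKT). CA9 passed the filter on low counts only through the MB231-myrAKT libraries, so its call there is not independent of the filter. With MK2206, 0 were higher and 1, ADM, was lower in KO1 (1.62-fold), and in KO2 0 were called by edgeR, with 8 of 11 at an unadjusted p under 0.05, against 53.4% of all tested genes. The medians were −0.16, −0.04, 0.31, 0.04 and −0.19 in the same order.

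Of 10 partners and targets reported for UCA1, 9 were tested, and GLS2 was under the filter with at most 25 counts. In each knockout line 1 was higher and 1 lower. EZH2, the histone methyltransferase of the Polycomb complex, was 1.66-fold higher in KO1 and 1.64-fold higher in KO2 (edgeR adjusted p = 1.1e-09 and 6.3e-09). CDKN1A, the cell cycle inhibitor p21, was 1.56-fold and 1.83-fold lower (adjusted p = 2.33e-08 and 5.92e-09).

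CDKN1A was called in all 5 comparisons. It was 1.68-fold higher in MB231-myrAKT (edgeR adjusted p = 2.47e-08), 2.92-fold higher with MK2206 in KO1 and 4.46-fold higher in KO2 (adjusted p = 8.03e-11 and 2.71e-09). Its mean in KO2+MK, 134.4 ± 27.6 CPM (SD, n = 3), had a wide spread, from 108.0 to 163.1. HK2, hexokinase 2, which UCA1 is reported to raise, was 1.92-fold lower in MB231-myrAKT (adjusted p = 5.01e-10). These were the only members called in those 3 contrasts.

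The RNAs of the proteins best known to bind UCA1 moved by less than 1.5-fold. PTBP1 was at 0.48 in KO1 and 0.46 in KO2 (edgeR adjusted p = 1.08e-08 and 8.72e-08) and at −0.00426 in MB231-myrAKT (adjusted p = 0.948). SMARCA4 was at 0.22, 0.15 and 0.02 in the same contrasts. CDKN1B, the cell cycle inhibitor p27, whose translation UCA1 is reported to limit through PTBP1, was at −0.22, −0.21 and −0.27 (adjusted p = 0.00126, 0.00185 and 0.000916). The medians of the list were 0.05 in KO1, −0.06 in KO2, −0.00426 in MB231-myrAKT, 0.000988 in KO1+MK and 0.02 in KO2+MK.

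**Figure D4:**
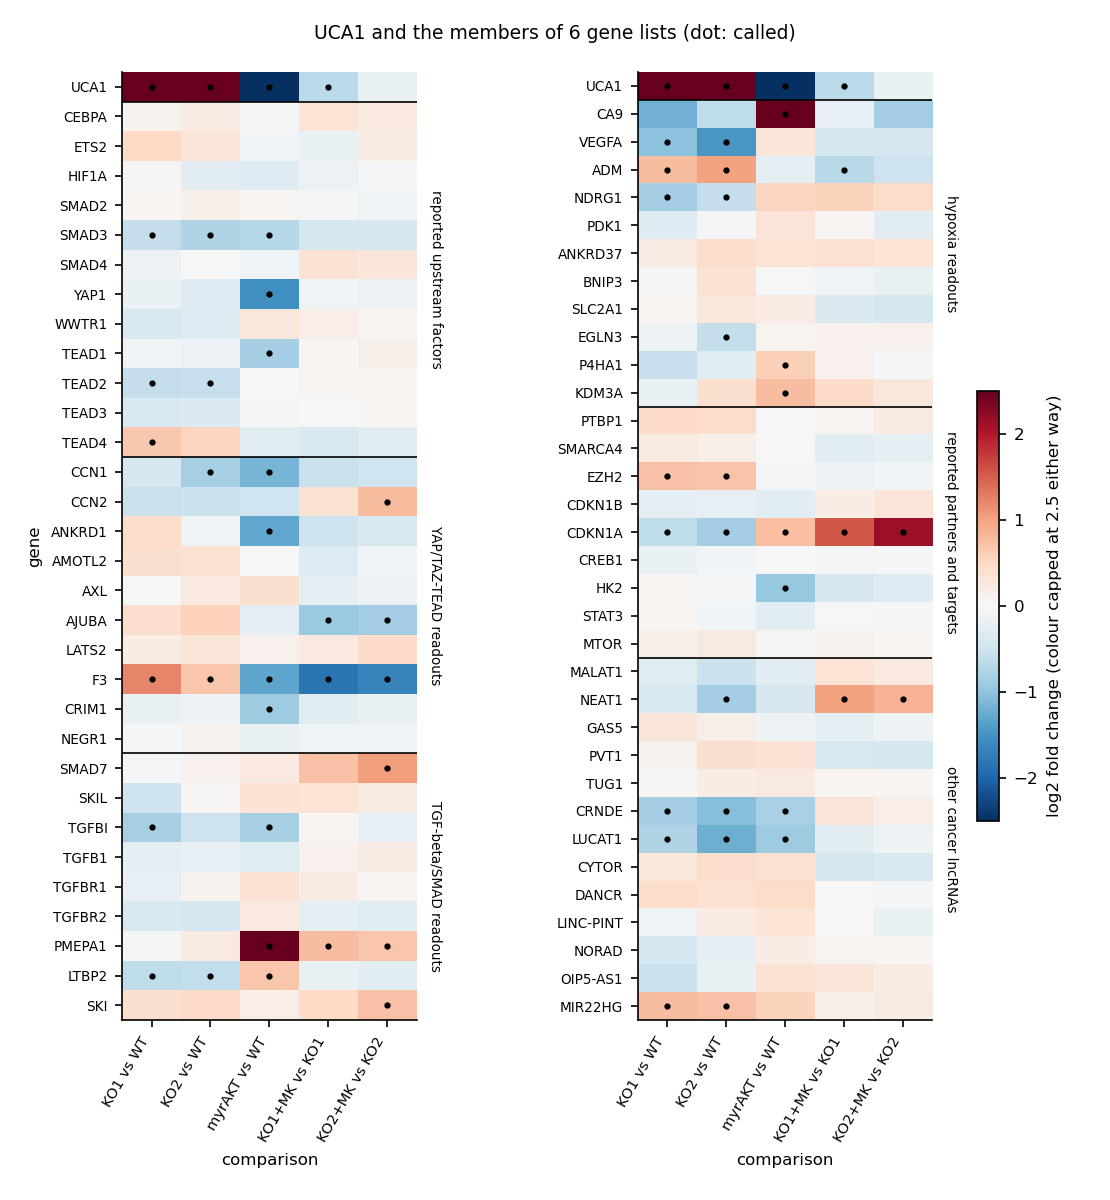
Log2 fold changes (colour, capped at 2.5 in either direction) of UCA1 and of the tested members of 6 gene lists in 5 comparisons, with a dot where the gene was called. In the first 4 columns UCA1 stands at 2.86, 2.87, −3.45 and −0.68, F3 at 1.23, 0.69, −1.31 and −1.82, and CDKN1A at −0.64, −0.87, 0.75 and 1.55.

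Other lncRNAs with a record in cancer gave 13 tested members of 18. HOTAIR, H19, MIR31HG and MEG3 had at most 3 counts in any library, and CCAT1 was not matched. In KO1, 1 was higher and 2 lower, in KO2, 1 higher and 3 lower, and in MB231-myrAKT, 0 higher and 2 lower. CRNDE was 1.80-fold lower in KO1, 2.09-fold lower in KO2 and 1.76-fold lower in MB231-myrAKT (edgeR adjusted p = 7.01e-06, 6.32e-06 and 3.39e-05). LUCAT1 was 2.32-fold lower in KO2 and 1.84-fold lower in MB231-myrAKT (adjusted p = 2.18e-07 and 0.00016), the second call being lost without MB231-myrAKT replicate 2 (−0.83). In KO1 the mean of LUCAT1 was 5.17 ± 0.503 CPM, against 8.57 ± 0.694 in MB231-WT (SD, n = 3). MIR22HG, the host transcript of a microRNA, was 1.71-fold higher in KO1 (adjusted p = 1.3e-06). Its mean was 12.5 ± 0.518 CPM in KO2, near the 12.96 ± 0.780 of KO1, against 7.47 ± 0.702 in MB231-WT (SD, n = 3).

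With MK2206, NEAT1, the scaffold of nuclear paraspeckles, was the member called, and it rose in both lines. It was 2.00-fold higher in KO1 and 1.83-fold higher in KO2 (edgeR adjusted p = 0.00021 and 4.24e-06). The call in KO1 was lost in DESeq2 (log2 fold change 0.99) and without KO1 replicate 1, 2 or 3 (1.02, 1.07 and 0.90). None of the 13 had the calls of UCA1. The list medians were −0.09, 0.14, 0.22, 0.05 and 0.04 in the order KO1, KO2, MB231-myrAKT, KO1+MK and KO2+MK.

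Over all 1572 tested lncRNAs, 94 were called higher (5.98%) and 119 lower (7.57%) in KO1, against 4.59% and 9.28% of all tested genes. In KO2, 127 were higher (8.08%) and 96 lower (6.11%), against 5.56% and 11.2%. In MB231-myrAKT 102 were higher (6.49%) and 87 lower (5.53%), against 4.94% and 8.83%. With MK2206, 22 were higher (1.4%) and 51 lower (3.24%) in KO1, against 3.3% and 1.71%, and 39 higher (2.48%) and 70 lower (4.45%) in KO2, against 4.9% and 2.16%. More lncRNAs were thus called lower than higher with MK2206, and the balance over all tested genes was the opposite, a difference that was not tested. By the log2 fold change UCA1 had rank 2 from the top in KO1 and rank 3 in KO2, which its choice by this rise fixes in part, so these ranks are a description. It had rank 10 from the bottom in MB231-myrAKT, rank 115 from the bottom in KO1+MK and rank 703 in KO2+MK.

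**Figure D5:**
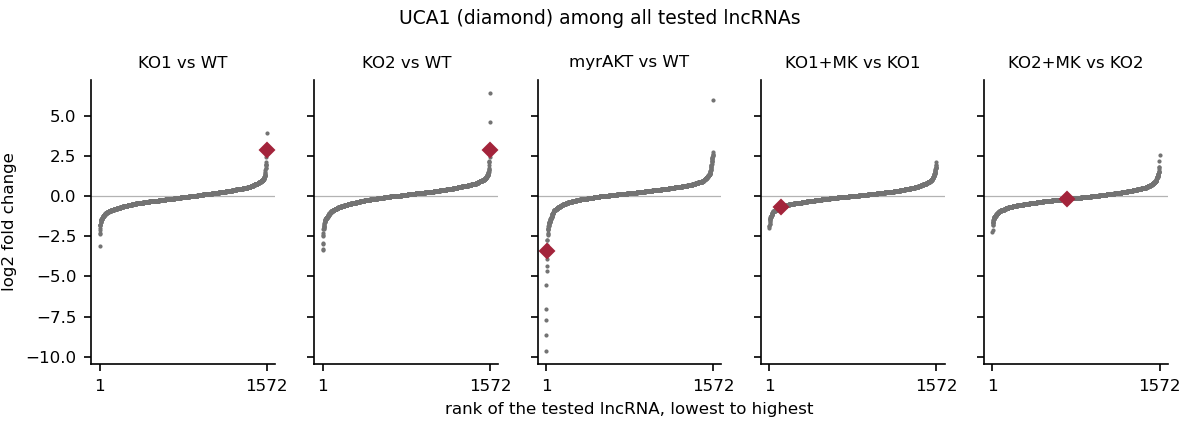
Log2 fold changes of the 1572 tested lncRNAs, ranked from lowest to highest, in 5 comparisons, with UCA1 as a diamond. UCA1 stands at rank 2 and 3 from the top in KO1 and KO2, the contrasts by which it was chosen, at rank 10 from the bottom in MB231-myrAKT and well inside the distribution in KO2+MK.

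Of lncRNAs called higher in both knockout lines with a mean of at least 100 counts in some group, UCA1 rose the most by its smaller change, followed by ENSG00000227706 and ENSG00000276672. They are given as a description, since they were chosen on the same contrasts. ENSG00000227706, on chromosome 6 from 67878316 to 67889339, had 6 to 9 counts per library in MB231-WT and was at 1.43 ± 0.148 CPM in KO1 and 5.20 ± 0.436 in KO2 (SD, n = 3). ENSG00000276672, on chromosome 13 from 33846190 to 33850825, was at 6.93 ± 1.27 CPM in MB231-WT, 27.3 ± 2.43 in KO1 and 32.2 ± 2.02 in KO2. Unlike UCA1, both were called higher in MB231-myrAKT, at 2.40 (edgeR adjusted p = 4.77e-05) and 0.72 (adjusted p = 0.000265) on the log2 scale. The MB231-WT libraries of this contrast are those against which both were chosen for a rise. Such a choice favours a rise here too, so these p-values are not independent of it. The call of ENSG00000276672 was lost without MB231-WT replicate 3 (0.68) or MB231-myrAKT replicate 1 (0.67).

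By the same limit and measure, the 3 lncRNAs with the largest fall in both knockout lines were ENSG00000235609 on chromosome 21, POU2F2-AS2 on chromosome 19 and ENSG00000229771 on chromosome 20. ENSG00000235609 was at 4.78 ± 0.481 CPM in MB231-WT, 0.566 ± 0.351 in KO1 and 0.615 ± 0.0585 in KO2 (SD, n = 3). POU2F2-AS2 was at 4.52 ± 0.615, 0.869 ± 0.169 and 0.585 ± 0.0781 CPM. In MB231-myrAKT, ENSG00000235609 was called lower, at −1.66 (edgeR adjusted p = 4.98e-07), and POU2F2-AS2 at −1.12 (adjusted p = 3.79e-05). ENSG00000229771 was at −0.69 there (adjusted p = 0.00107). The MB231-WT libraries of this contrast are those against which the 3 were chosen for a fall. That choice favours a fall here too, so these p-values are not independent of it. None of these 5 other lncRNAs was called under MK2206 in either line.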

How the data were processed

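The deposited values are counts, that is, reads assigned by the authors to Ensembl genes, without normalization. Per the labels and the submitters' processing notes, libraries were depleted of ribosomal RNA (Kapa RNA HyperPrep with RiboErase), and the tools were FastQC, Trim Galore, HISAT2, featureCounts and MultiQC on hg38. Versions, annotation, strand setting and the rule for overlapping genes are not given in the sources used here. Groups came from the sample labels. Positions and symbols were taken from GENCODE release 44, which matched 56948 of 57448 identifiers.

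The 15587 genes at 1 CPM or more in 3 or more of the 18 libraries were fitted with edgeR 4.0.16 in R 4.3.3 (TMM scaling, quasi-likelihood test, Benjamini-Hochberg adjustment over all tested genes), on the libraries of each comparison. DESeq2 1.42.0 was an alternative. The filter used plain library totals. The CPM and RPKM values in the text used TMM-scaled totals and union exon length, and log2 CPM a prior count of 2. The chi-square of replicate pairs averaged 2.26 to 11.6 per gene, above counting error. The scripts were tested on simulated data. Python 3.11.15, pandas 2.3.3 and matplotlib 3.10.9 made tables and figures.

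UCA1, the lists and the tests were chosen with earlier results of these data known. The named genes were UCA1, GPS2 and AKT1, the 3 nearest tested neighbours and the nearest untested one on each side, with the called ones, the 5 most and 3 least correlated genes, the 2 members with the largest called change per list and comparison, and the 3 lncRNAs with the largest rise and fall shared by both lines. PTBP1, SMARCA4, CDKN1B, CEBPA, ETS2, HIF1A, WWTR1, NEGR1, CCN2, LINC01764, ENSG00000288618, ENSG00000261915 and KLF2 were named outside that rule, after their values were seen. One of the 5 most correlated genes and 1 member of the TGF-beta list are not reported here.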

Additional observations from a re-analysis of the deposited data

How the results depend on the processing

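UCA1 kept its direction and its side of the call in 8 of 9 contrasts under every alternative: another tool (DESeq2), other scaling in edgeR (DESeq2 factors, upper quartile, totals alone), other filters (1 count in any library, or 10 in each), a joint fit of the 18 libraries, the replicate block, no minimum fold change, and the omission of each library. Without 1 library, the log2 fold change ran from 2.79 to 2.96 in KO1, 2.80 to 2.91 in KO2, −3.73 to −3.32 in MB231-myrAKT, −0.77 to −0.60 for MK2206 in KO1, −0.22 to −0.11 for MK2206 in KO2, and 0.43 to 0.60 for the difference between the lines. It ran from 2.13 to 2.24 for KO1+MK and 2.65 to 2.73 for KO2+MK against MB231-WT. The contrast of KO2 with KO1, near 0 throughout, changed sign: it was −0.0335 with no filter, −0.000107 with the 18 libraries fitted jointly, and −0.0833 to 0.0825 without 1 library. The cause was not tested.

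Neighbours called moved mainly with the threshold. With no minimum fold change there were 7 in KO1, 6 in KO2, 1 in MB231-myrAKT, and 3 and 4 with MK2206 in KO1 and KO2. There were 2 in KO1 with no filter, and 1 to 2 without 1 library (2 without KO1 replicate 2). In KO2 there was 1 in the joint fit, and 0 to 1 without 1 library (1 without MB231-WT replicate 1 or replicate 2). Of 3735 further values of the other named genes under the alternatives, 0 called values reversed, 57 values that were not called changed sign, and 32 calls were lost and 96 gained. Of 450 counts of called list members, 54 moved by over 1.5 times, 29 of them with no minimum fold change.

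Replicate numbers did not pair the libraries: the correlations of same-numbered deviations ran from −0.23 to 0.21. With the replicate block, UCA1 was at 2.86 in KO1, 2.87 in KO2, −3.46 in MB231-myrAKT, −0.67 and −0.17 for MK2206 in KO1 and KO2, and 0.50 for the difference between the lines (edgeR adjusted p = 0.0834).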
